A study of Homo sapiens with 18 samples.

Results

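The genes described are those of the cytosolic ribosomal proteins, the protein components of the ribosomes that translate nuclear-encoded mRNAs. Members were all probe sets whose only annotated gene symbol is RPL or RPS followed by a number (with an X, A, L or Y suffix), RPSA, RPLP0, RPLP1 or RPLP2, leaving out RPS6K genes and pseudogenes. This rule gave 96 of the 22283 probe sets of the Affymetrix array, and they belong to 58 of the 11963 genes with a probe set of their own. Of these, 55 genes passed a filter on low signals (at least 50 on at least 3 arrays) and were tested among 9162 genes, 21 of them of the small (40S) and 34 of the large (60S) subunit. RPL3L and RPL10L stayed below the filter, with highest signals of 18.3 and 46.1, and the Y-linked member is given no values. The family is read in part: of 85 RefSeq symbols that meet the rule (Y-linked ones left out), 28 have no probe set of that symbol alone, among them RPLP0, RPL5, RPL10, RPL22L1 and RPL7L1, and are not analysed here.

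The expression data are from the human line SK-N-MC, called neuroepithelioma in the labels and neuroblastoma in the study. The cells were grown with rotenone, a plant-derived insecticide that blocks electron transfer at mitochondrial complex I, or with its ethanol vehicle (0.05%). The 6 groups are vehicle, 5 nM and 50 nM for 1 week (1w0nM, 1w5nM and 1w50nM) and the same doses for 4 weeks (4w0nM, 4w5nM and 4w50nM), all in medium without pyruvate. Each group has 3 arrays, 1 for each of 3 experiments, and in each experiment 5 dishes per condition and time were pooled. The p-values therefore rest on the spread of 3 pools from 1 cell line. The labels call the 5 nM dose non-lethal and the 50 nM dose more toxic, and the study's text calls them marginally and moderately toxic.

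The values are model-based expression indexes, linear signals on an arbitrary scale. Array medians lay between 87.0 and 102. Hybridization controls, which are spiked in after labelling, had 0.496 times the signal on the 6 arrays of the 4-week rotenone groups that they had on the other 12, with no overlap, and the ratio of 3′ to 5′ ACTB probe sets was 0.17 ± 0.04 (log2, SD, n = 3) in 4w50nM, against -0.06 ± 0.03 in 4w0nM. Array 3 of 1w0nM stood apart from the other arrays of its group, in which the lowest correlation between arrays was 0.914, against 0.967 or more in the other groups. Ewing family tumour markers were present (CD99 between 2067 and 3471), while of the 7 neuroblastoma markers with a probe set PHOX2A (at most 30.1), TH (at most 19.9) and HAND2 (at most 20.1) stayed below the filter and GATA3, ISL1, MYCN and DBH passed the filter. The summed signals of 8 fibroblast markers lay between 6160 and 6384 in 4w0nM, between 4250 and 4992 in 4w5nM and between 4188 and 4650 in 4w50nM, and at 1 week between 3877 and 4353 in 1w0nM, between 6285 and 6491 in 1w5nM and between 5866 and 6443 in 1w50nM. Of the 8 markers, 4 were called higher at each dose at 1 week, and at 4 weeks 4 were called lower and 1 higher with 5 nM and 5 lower with 50 nM. The 4 blood cell markers summed to between 1434 and 1706 in 4w5nM, against 443 to 558 in 4w0nM and 294 to 396 in 4w50nM. At 1 week the sums were 197 to 1204 in 1w0nM, 387 to 561 in 1w5nM and 316 to 371 in 1w50nM. Of the 4 markers PTPRC reached 1567 and HBB 131, and CD3D and CD14 reached at most 23.5 and 21.2. The part of these quantities in the results on ribosomal proteins was not tested. In pooled RNA, fewer cells of a type and less RNA per cell cannot be told apart, and because the arrays were scaled to each other a change shared by all mRNAs would not appear.

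Ribosomal proteins assemble with the rRNAs in the nucleolus, each in a single copy per ribosome except for the paired P proteins of the stalk, and free ribosomal proteins are usually degraded. Most of their mRNAs start with a run of pyrimidines, the 5′ terminal oligopyrimidine (TOP) tract, through which the kinase mTOR controls their translation, so that the amount of mRNA is only a part of the control. A few members have paralogs that replace them in some tissues, and RPL5 and RPL11 bind MDM2 outside the ribosome when its assembly fails.

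The start sites show a feature that most of the family shares. RefSeq windows (GRCh38.p14) were found for 49 of the member genes, with 57 windows in all, because some genes have several. A run of at least 5 pyrimidines that begins with C and reaches within 10 bases of the start was present in 84.2% of the member windows, against 38.5% of all 35116 windows, and a run of at least 8 was present in 68.4% of the member windows, against 12.5% of all. Of the motifs searched on both strands over the whole 300 bases, CCGGAAG was in 38.6% of member windows and 10.3% of all windows, CTCTTT in 42.1% and 20.9%, CTTTCC in 42.1% and 26.3%, and TATAAA in 7.02% and 11.5%. CTCTTT and CTTTCC can be part of the pyrimidine run. The windows below hold 15 bases before and 15 from the start, with the pyrimidine run in capitals. They are shown for some of the genes named in the results and for the pair RPS27 and RPS27L, in which the paralog window has no such run. Other windows differ from those shown. RPS29 has no such run, the windows of RPL32 have runs of 6, 0 and 5 bases, and the paralog RPL36AL has a run of 12.
RPS28, chr19:8321481-8321510, plus strand: tccccgaagcacgtgaCTCCTCTCCgccag
RPLP2, chr11:809952-809981, plus strand: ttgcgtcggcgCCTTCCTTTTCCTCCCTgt
RPL27A, chr11:8682777-8682806, plus strand: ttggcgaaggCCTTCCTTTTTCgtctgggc
RPL14, chr3:40457324-40457353, plus strand: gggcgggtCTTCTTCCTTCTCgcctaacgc
RPL39, chrX:119791616-119791645, minus strand: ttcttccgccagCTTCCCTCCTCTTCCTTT
RPS27, chr1:153990747-153990776, plus strand: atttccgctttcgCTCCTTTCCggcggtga
RPS27L, chr15:63157463-63157492, minus strand: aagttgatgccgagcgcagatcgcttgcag
These letters describe the reference sequence and say nothing of which start the cells used.

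Across the 6 groups the signals read for most ribosomal protein genes, each from its brightest probe set, were nearly flat. The moderated F test of limma called 16 of the 55 genes (29.1%), against 61.6% of all genes tested. The range of a gene was the ratio of its highest to its lowest group mean, with the means taken on log2 signals. The median range of the members was 1.12-fold, against 1.61-fold for all genes. At the flat end were RPS23, a protein of the decoding site, with a range of 1.03-fold, and RPS24 with 1.03-fold, and at the other end RPL39L reached 11.6-fold, RPL27A 2.22-fold, RPLP2 1.74-fold and RPL14 1.72-fold. The small subunit had 4 of 21 genes called and the large subunit 12 of 34. Mitochondrial ribosomal proteins, which are also encoded in the nucleus, had 31 of 50 called with a median range of 1.48-fold.

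The flat genes are also bright ones. Of the 55 genes, 47 had a mean signal of at least 4000, a limit chosen after the values were seen, and 12 of them (25.5%) were called by the F test, with a median range of 1.10-fold. The 56 other genes as bright had 27 called (48.2%) and a median range of 1.195-fold. The 8 dimmer members had 4 called (50%), against 61.9% of the 9051 dimmer other genes, and their median range was 1.36-fold, against 1.62-fold. Among these 8 were RPL39L, RPL27A and RPLP2, with mean signals of 218, 306 and 110. Whether such bright signals show a change in full was not tested. Signals of different genes were not compared as amounts of mRNA, and 15 of the 55 genes were read from an _x_at probe set, whose probes can also bind related sequences such as the many ribosomal protein pseudogenes.

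**Figure D1:**
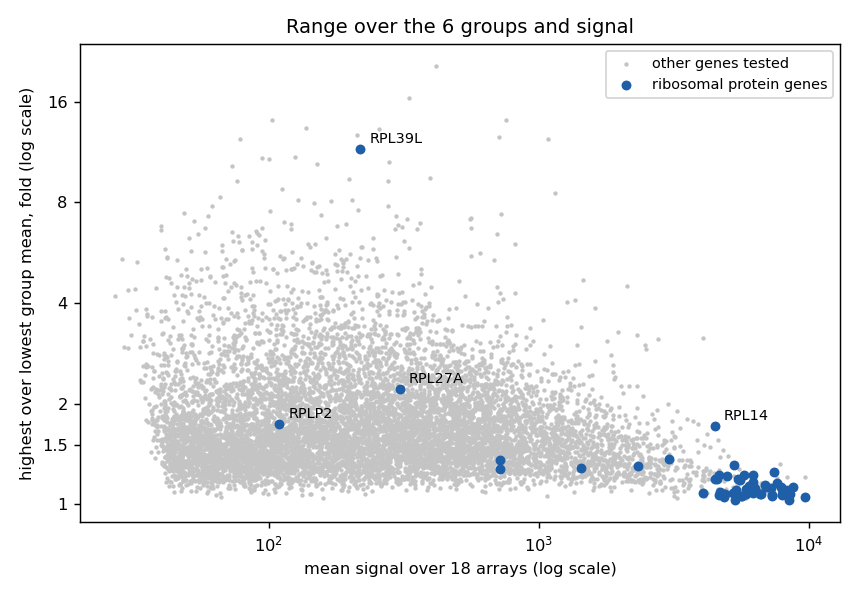
Ratio of the highest to the lowest group mean, with means taken on log2 signals (vertical axis, log scale), against the mean signal over 18 arrays (horizontal axis, log scale) for the ribosomal protein genes (blue) and the other genes tested (grey). Most blue points crowd at signals above 4000 with a range near 1.1-fold, and RPL39L stands at 11.6-fold.

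The effect of rotenone on the members was small at both doses and both times. The median log2 fold change of the 55 genes was -0.00 for 5 nM and 0.01 for 50 nM at 1 week, and 0.00 for 5 nM and -0.01 for 50 nM at 4 weeks. The medians over all genes tested were 0.07, 0.02, 0.03 and 0.02 in the same order. The 95% interval of the fold change lay within 1.5-fold either way for 52 of the 55 genes with 5 nM and 49 with 50 nM at 1 week, and for 49 with 5 nM and 50 with 50 nM at 4 weeks. For 50 nM at 4 weeks this was 90.9% of the members and 32.1% of all genes tested, and the median standard error of a member was 0.06 on the log2 scale, against 0.17 for all genes.

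**Figure D2:**
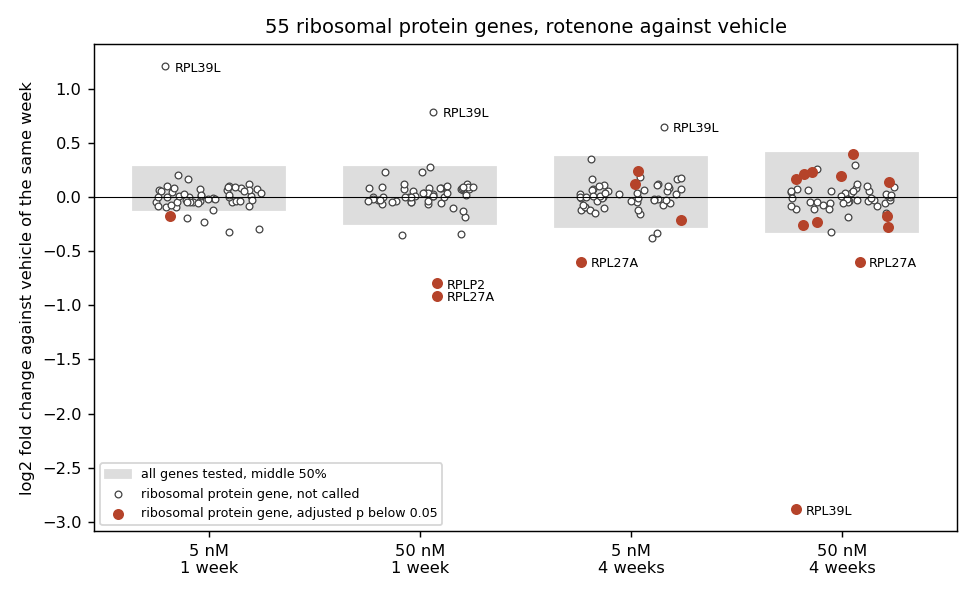
Log2 fold change against the vehicle of the same week (vertical axis) for the 55 ribosomal protein genes in the 4 dose and week combinations, with genes called at an adjusted p below 0.05 filled in red and the middle 50% of all genes tested as grey boxes. Most members lie inside the boxes, and RPL39L at 50 nM for 4 weeks lies at -2.88.

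At 1 week few members changed. With 5 nM, 1 of 55 genes was called (1.82%), against 6.59% of all genes, with 4.98% called higher and 1.62% called lower. It was RPS29, a zinc-binding protein of the small subunit head, with 5992, 5894 and 5572 in 1w5nM, against 6342, 6744 and 6582 in 1w0nM. All 3 treated arrays were below the vehicle arrays, as groups did not overlap for 24.3% of all genes, and RPS29 fell by 0.17 (SE 0.05, adjusted p = 0.0449). The call was lost when any array other than array 1 of 1w0nM was left out, with adjusted p between 0.0602 and 0.161.

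With 50 nM at 1 week, 2 of 55 genes were called (3.64%), both lower, against 20.1% of all genes, with 8.75% called higher and 11.3% called lower. RPL27A, a large subunit protein, had 192, 232 and 340 in 1w50nM, against 443, 511 and 446 in 1w0nM. The groups did not overlap, and RPL27A fell by 0.91 (SE 0.18, adjusted p = 0.00251). RPLP2, which with RPLP1 forms the stalk that recruits the GTPase factors of translation, had 86.8, 64.1 and 70.9 in 1w50nM, against 128, 151 and 108 in 1w0nM. It fell by 0.80 (SE 0.18, adjusted p = 0.00593), again with no overlap, which 31.2% of all genes showed. Its partner RPLP1 had a log2 fold change of 0.07 (95% interval -0.07 to 0.21). RPLP2 was read from a dim probe set with a mean signal of 110 over all arrays, the lowest of the members tested, and RPL27A from one with 306. RPLP1 had 6194 and the median of the members was 5764, so the stalk partners were read at unlike signals. Both calls were lost when the fit held only the 6 arrays compared, and when the 4w0nM arrays took the place of the 1-week vehicle, where the log2 fold changes were -0.36 for RPL27A and -0.38 for RPLP2. The RPLP2 value was -0.44 (adjusted p = 0.224) when array 2 of 1w5nM and array 3 of 1w50nM were exchanged, and without array 3 of 1w0nM 7 members were called.

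**Figure D3:**
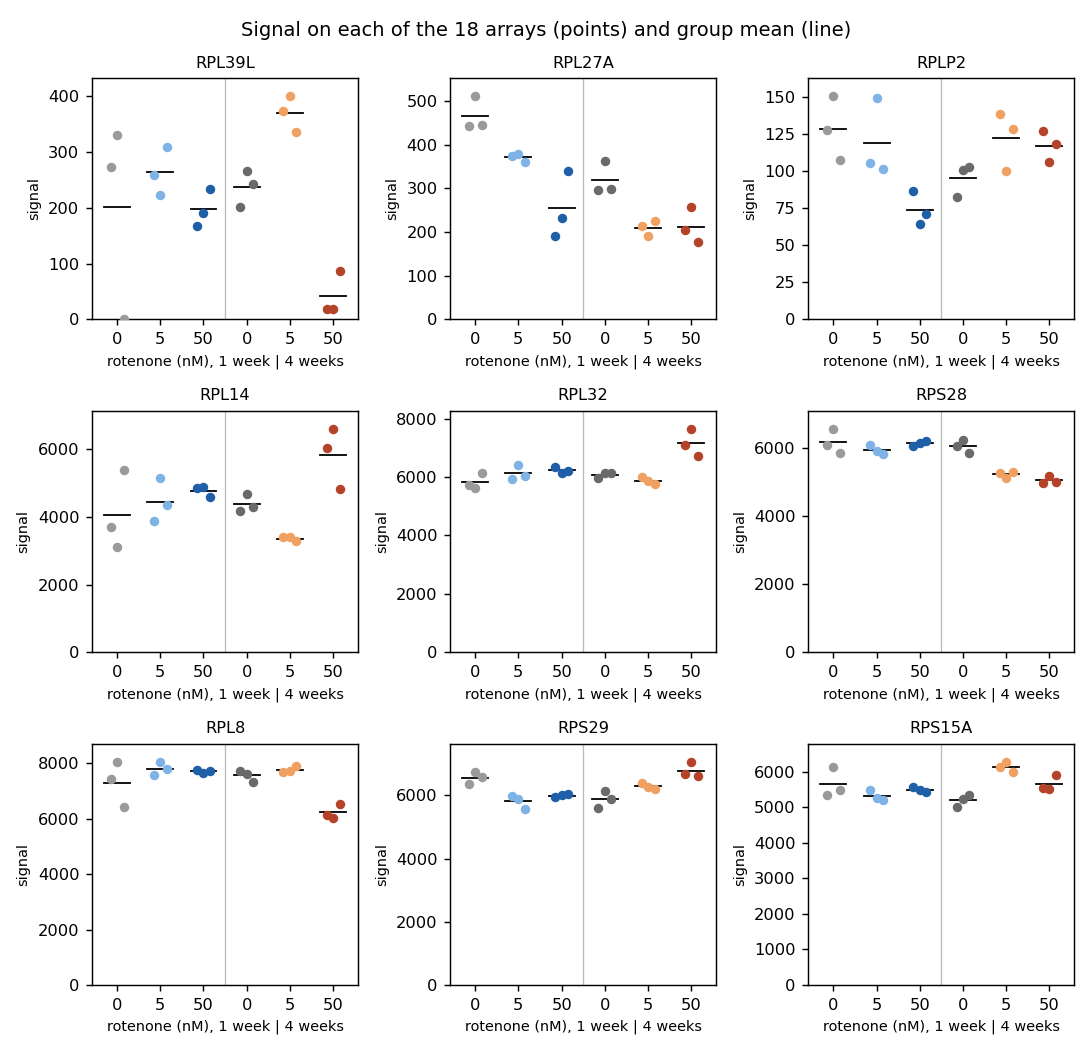
Signal (vertical axis, linear, from 0) on each of the 18 arrays, as points, and group mean, as lines, of 9 ribosomal protein genes at 0, 5 and 50 nM rotenone for 1 week (left of the grey line) and 4 weeks (right). RPL39L drops in 4w50nM, RPS28 is lower at both doses at 4 weeks, and RPL14 and RPL32 are high in 4w50nM.

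At 4 weeks with 5 nM, 2 members rose and 2 fell (7.27% of 55), against 32.9% of all genes, with 18.6% called higher and 14.3% called lower. RPS28, a small protein beside the mRNA exit of the small subunit, had 5273, 5117 and 5284 in 4w5nM, against 6047, 6240 and 5865 in 4w0nM. RPS28 was below all vehicle arrays, where 53.1% of all genes had groups that did not overlap, and fell by 0.21 (SE 0.05, adjusted p = 0.00401). RPL27A, with 214, 191 and 227 in 4w5nM, against 296, 364 and 299 in 4w0nM, fell by 0.60 (SE 0.18, adjusted p = 0.0159), and its call was lost without array 2 of 4w0nM (adjusted p = 0.0772) or array 2 of 4w5nM (0.0595). RPS15A, a small subunit protein bound to the body of the 18S rRNA, had 6140, 6271 and 5982 in 4w5nM, against 5013, 5232 and 5335 in 4w0nM. It rose by 0.24 (SE 0.06, adjusted p = 0.00351), and RPL31, which lies at the exit of the peptide tunnel, rose by 0.12 (adjusted p = 0.0333), a call that 5 of the 6 leave-one-out fits lost. Without array 2 of 4w5nM, 2 members were called in all. Without the intensity trend, which gives bright probe sets a smaller prior variance, 1 member was called (1.82%, against 32.6% of all genes), and with array weights 19 were (34.5%, against 60.7%).

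At 4 weeks with 50 nM, 6 members rose and 6 fell (21.8% of 55), against 41.3% of all genes, with 23.5% called higher and 17.7% called lower. Among the members that rose, RPL14 and RPL32 are large subunit proteins. RPL14 had 6041, 6600 and 4828 in 4w50nM, against 4184, 4670 and 4294 in 4w0nM, and rose by 0.40 (SE 0.15, adjusted p = 0.042). RPL32 had 7090, 7643 and 6727 in 4w50nM, against 5969, 6122 and 6130 in 4w0nM. It rose by 0.23 (SE 0.05, adjusted p = 0.00232), and neither gene overlapped between groups. RPS29 rose by 0.21 (adjusted p = 0.00295), with 6669, 7057 and 6607 in 4w50nM, against 5614, 6123 and 5873 in 4w0nM.

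The other rises with 50 nM at 4 weeks were RPL12, a protein at the base of the stalk, by 0.19 (adjusted p = 0.0307), RPL3, which reaches towards the peptidyl transferase centre, by 0.16 (0.0399), and RPS6, the substrate of the S6 kinases, by 0.14 (0.0364). RPL12 was the exception among the 12 called genes in that its groups overlapped, with 7923, 8666 and 6949 in 4w50nM, against 7042, 6891 and 6575 in 4w0nM. Groups that do not overlap were seen for 60% of all genes tested in this comparison.

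Of the members that fell with 50 nM at 4 weeks, RPS28 was called at both doses. RPS28 had 4975, 5164 and 5012 in 4w50nM, all below the lowest 4w0nM array at 5865, and fell by 0.26 (SE 0.05, adjusted p = 0.000578). RPL8, a protein near the peptidyl transferase centre, had 6148, 6028 and 6535 in 4w50nM, against 7732, 7627 and 7318 in 4w0nM. It fell by 0.28 (SE 0.06, adjusted p = 0.00197), and its groups did not overlap. RPL27A fell by 0.60 (adjusted p = 0.0126), with 204, 257 and 177 in 4w50nM. RPL35A, mutated in some patients with Diamond-Blackfan anaemia, fell by 0.23 (adjusted p = 0.0161), and RPL38, which in mice is needed for translation of a set of Hox mRNAs, fell by 0.17 (adjusted p = 0.0382). RPL39L was the remaining member that fell.

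These counts depend on the error model and on single arrays. Without the intensity trend 4 members were called for 50 nM at 4 weeks (7.27%, against 40.7% of all genes) and with array weights 19 (34.5%, against 61.1%). Without the trend the calls of RPL27A, RPS28, RPL8 and RPL39L were kept, while that of RPL32 had an adjusted p of 0.0533. Leaving out array 2 of 4w0nM gave 5 calls, array 3 of 4w0nM or array 1 of 4w50nM 6 each, and array 2 of 4w50nM 7. RPS28, RPL8, RPL32, RPS29 and RPL39L were called in all 6 leave-one-out fits, and RPL14 in 1 of them. The calls of RPL3, RPS6 and RPL38 were lost in 5 of the 6, that of RPL12 in 4, that of RPL35A in 3 and that of RPL27A in 2. With averaged probe sets RPS6 had 0.06 and RPL38 -0.05, neither called, and without array 2 of 4w50nM RPL12 had 0.12 and RPS6 0.09.

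RPL39L had the largest change of any member. It is a paralog of RPL39, the small protein that lines the exit tunnel of the large subunit, and in mice it is known from male germ cells. Its signals at 4 weeks were 202, 265.4 and 243 in 4w0nM, 374, 399 and 336 in 4w5nM, and 19.1, 19.4 and 87.2 in 4w50nM. All 3 arrays of the higher dose were below every array of both other groups. Groups did not overlap for 60% of all genes tested against vehicle and for 33.1% against 5 nM. The log2 fold change of 50 nM was -2.88 (SE 0.77, adjusted p = 0.00613) against vehicle and -3.53 (SE 0.77, adjusted p = 0.00443) against 5 nM. The means of the linear signals were 236 in 4w0nM, 369 in 4w5nM and 41.9 in 4w50nM.

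At 1 week RPL39L had 273, 329 and 1.62 in 1w0nM, 257, 223 and 309 in 1w5nM, and 167, 190 and 232 in 1w50nM, where the array with 1.62 is array 3, the one that stood apart. That array entered the fit at the floor of 16, and the 1-week fold changes of 0.79 for 50 nM and 1.21 for 5 nM were not called (95% intervals -0.83 to 2.40 and -0.41 to 2.83). With a floor of 1 in place of 16, the RPL39L call for 50 nM at 4 weeks was lost against vehicle (adjusted p = 0.0754) and against 5 nM (0.0612). RPL39 itself had a log2 fold change of -0.05 for 50 nM at 4 weeks (95% interval -0.16 to 0.07), on signals of 5696, 5403 and 5698 in 4w50nM, against 5693, 5866 and 5771 in 4w0nM.

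The other tested paralogs were not called in any dose comparison. RPS27L, which p53 activates in human cells, had log2 fold changes of 0.06 for 50 nM and 0.19 for 5 nM at 4 weeks, with intervals of -0.39 to 0.52 and -0.27 to 0.64, while its partner RPS27 had 0.02 and 0.10. RPL36AL had -0.04 for 50 nM at 4 weeks (interval -0.32 to 0.23) and RPL26L1 had -0.18 (interval -0.52 to 0.16). RPL22, partner of a paralog not analysed here, had 0.09 in the same comparison (interval -0.06 to 0.24) on its brightest probe set. In a fit of all probe sets, its 5 tested ones lay between -0.04 and 0.69 in this comparison, with 1 called higher and 0 lower. With 5 nM at 4 weeks, 50 nM at 1 week and 50 nM against 5 nM at 4 weeks, 1 RPL22 probe set was likewise called higher and 0 lower. RPL11, the member of the 5S particle that could be read, had 4816, 4822 and 4718 in 4w50nM, against 4240, 4830 and 4576 in 4w0nM, a log2 fold change of 0.08 (interval -0.05 to 0.20) with overlapping groups.

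The doses were also compared with each other. At 1 week no member differed between 50 nM and 5 nM by limma (0 of 55 called, 3 at an unadjusted p below 0.05, 6 called with array weights, under which 25.6% of all genes were), where 0.0109% of all genes were called. At 4 weeks 3 members were higher and 4 lower with 50 nM (12.7% of 55), against 17.4% of all genes, with 10.1% higher and 7.35% lower. RPL14 was higher by 0.78 (SE 0.15, adjusted p = 0.00211), with 6041, 6600 and 4828 in 4w50nM, against 3394, 3404 and 3282 in 4w5nM. RPL32 was higher by 0.28 (adjusted p = 0.00198) and RPL29, which promotes subunit joining in yeast, by 0.38 (adjusted p = 0.0301). RPL8 was lower by 0.32 (adjusted p = 0.00246), RPL35A by 0.29 (0.0119), RPL30 by 0.19 (0.0249) and RPL39L as given above. Array 1 of 4w50nM decided part of this count, as 4 members were called without it. Leaving out single arrays ended the call of RPL29 in 5 of 6 fits (adjusted p up to 0.132), that of RPL30 in 4 (up to 0.0895) and that of RPL35A in 1, and those of RPL14, RPL32, RPL8 and RPL39L in 0.

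All 7 of these genes are on 2 chromosomes, 5 on chromosome 3 and 2 on chromosome 8. On chromosome 3 the order among the 522 tested genes was RPL32 at 33, RPL14 at 92 and RPL29 at 192, all higher with 50 nM, then RPL24 at 268 (log2 fold change -0.04, not called), and RPL39L at 492 and RPL35A at 522, both lower. The 3 members on chromosome 8 were RPL8 and RPL30, both called lower, and RPL7, an RNA-binding protein of the large subunit, at -0.17 (adjusted p = 0.0701). The remaining 46 members on other chromosomes had none called. Of all genes tested, those on chromosomes 3 and 8 included, 17.4% were called. Of the 516 other genes tested on chromosome 3, 146 were higher and 60 lower with 50 nM. Elsewhere the number called differed. On chromosome 6, with 4 members, 151 of 496 other genes were higher and 12 lower, and on chromosome 19, with 7 members, 30 of 598 were higher and 21 lower.

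The median change of the genes around each of the 7 called members had the sign of the member. For each member the 10 nearest tested genes on either side were taken, leaving out other ribosomal protein genes, and at a chromosome end fewer were found. The median log2 fold change of 50 nM against 5 nM over these neighbours was 0.57 around RPL32, 0.58 around RPL14 and 0.61 around RPL29, with 13, 11 and 11 of 20 neighbours called higher. It was -0.54 around RPL39L, -0.48 around RPL35A, -0.55 around RPL8 and -0.52 around RPL30. Called lower were 7 of 20 neighbours of RPL39L (1 called higher), 3 of 10 of RPL35A, 5 of 14 of RPL8 and 12 of 20 of RPL30 (1 called higher), so that most neighbours of the first 3 did not pass the test. Of the 356 other genes tested on chromosome 8, 154 were lower and 8 higher with 50 nM, with a median of -0.51. All 7 called members had the sign of their neighbours' median, as did 36 of all 55. Across the 55 members the correlation of a member's log2 fold change with its neighbours' median was 0.478 (Pearson) and 0.541 (Spearman), and 0.674 (Pearson) without RPL39L. This is a correlation across genes, which share the arrays and in part their neighbours, and is given as a description. Against vehicle it was 0.185 for 5 nM and 0.179 for 50 nM at 4 weeks.

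**Figure D4:**
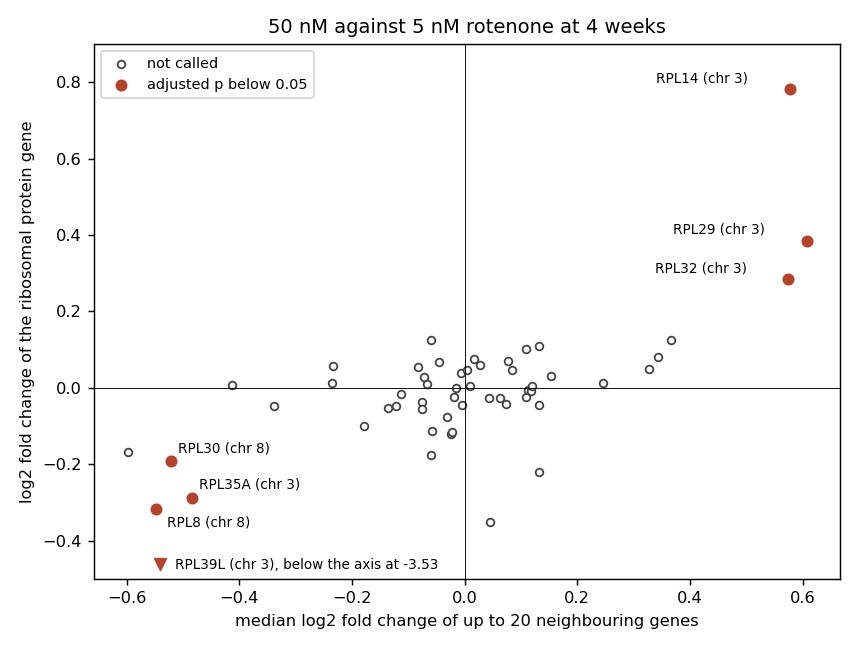
Log2 fold change of each ribosomal protein gene for 50 nM against 5 nM rotenone at 4 weeks (vertical axis) against the median log2 fold change of up to 20 neighbouring genes (horizontal axis), with called genes in red. The 3 called genes at the upper right are on the first part of chromosome 3, the 4 at the lower left are on the end of chromosome 3 and on chromosome 8, and RPL39L is drawn as a triangle because its value of -3.53 lies below the axis.

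The same neighbours were read against vehicle, which both doses share. For RPL8 the neighbours' median was -0.61 with 50 nM and 0.02 with 5 nM. For RPL32 it was 0.41 with 50 nM and -0.18 with 5 nM, and for RPL14 0.12 with 50 nM and -0.27 with 5 nM. For RPL29 it was 0.22 with 50 nM and -0.36 with 5 nM, and for RPL30 -0.27 and 0.37 in the same order. For RPL35A it was -0.09 and 0.48, and for RPL39L -0.21 and 0.27. RPL14 itself had 0.40 with 50 nM (adjusted p = 0.042) and -0.38 with 5 nM (adjusted p = 0.0603) against vehicle.

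No member was called over time in the vehicle cells. Between 4w0nM and 1w0nM, 0 of 55 genes were called, against 3.6% of all genes (2.88% higher and 0.72% lower), with a median of -0.01. At an unadjusted p below 0.05 there were 6, and 2 were called after quantile normalization and 1 after median scaling. With 5 nM, 1 member rose and 5 fell at 4 weeks relative to 1 week (10.9%, against 37.7% of all genes, 20.4% higher and 17.3% lower). RPL36, a large subunit protein, was lower by 0.29 in 4w5nM than in 1w5nM (adjusted p = 0.0299), RPL18 by 0.21 (adjusted p = 0.0112), RPL27A by 0.82 (adjusted p = 0.00179), RPL14 by 0.40 (adjusted p = 0.046) and RPS28 by 0.19 (adjusted p = 0.00766), and RPS15A was higher by 0.21 (adjusted p = 0.00773). Of these calls, that of RPL14 was lost in 5 of 6 leave-one-out fits (adjusted p up to 0.205) and under 6 of 14 other settings, which gave values between -0.41 and -0.24, that of RPL36 in 4 of 6 and that of RPL18 in 2 of 6. With 50 nM, 4 rose and 9 fell (23.6%, against 51.2% of all genes, 30.5% higher and 20.7% lower). RPS28, with 4975, 5164 and 5012 in 4w50nM, against 6067, 6157 and 6209 in 1w50nM, fell by 0.28 (adjusted p = 0.00016). RPL38 fell by 0.26 (adjusted p = 0.00289), RPL36 by 0.32 (adjusted p = 0.0136), RPL8 by 0.31 (adjusted p = 0.00056), RPL35A by 0.22 (adjusted p = 0.0187) and RPL39L had a log2 fold change of -2.61 (adjusted p = 0.00867). RPLP2 rose by 0.67 (adjusted p = 0.0049), RPL32 by 0.20 (adjusted p = 0.00544), RPS29 by 0.18 (adjusted p = 0.00631) and RPL41, one of the shortest human proteins, by 0.12 (adjusted p = 0.0458). The RPL41 call was lost in 4 of 6 leave-one-out fits, with 0.06 (not called) without array 2 of 4w50nM. The value of RPL38 turned to 0.04 when its probe sets were averaged, and another of its probe sets had 0.26 and was not called. The RPL35A call was lost in 2 of 6 leave-one-out fits. The difference of the dose effect between weeks was called for 2 members with 5 nM (3.64%, against 32.7% of all genes), both higher at 4 weeks, as were 15.2% of all genes. With 50 nM it was called for 5 (9.09%, against 44.8%), 2 higher and 3 lower, against 24.3% of all genes higher and 20.5% lower.

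Probe sets of the same gene did not always move together. When all 13705 probe sets of a single gene past the filter were fitted, 87 of them from members, 12 member probe sets rose and 10 fell with 50 nM at 4 weeks, against 41% of all probe sets called, and 7 rose and 8 fell with 5 nM at 4 weeks, against 32.4%. For 50 nM against 5 nM at 4 weeks 6 were higher and 4 lower, against 16.6%, and at 1 week the share of all probe sets was 0.0073%. With 5 nM at 1 week 0 rose and 1 fell, against 6.68%, with 50 nM at 1 week 2 rose and 4 fell, against 21.8%, and over time in vehicle 0 rose and 1 fell, against 3.26%. The fall over time in vehicle, and 1 of the 4 with 50 nM at 1 week, came from a dim RPS12 probe set. That probe set passed the filter only through 1w0nM, so these falls are not read as results. Of 18 member probe sets with a mean signal under 1000, 8 were called with 50 nM at 4 weeks (44.4%), and of 69 brighter ones 14 were called (20.3%), while over all probe sets the shares were 41.1% and 40.6%. With 5 nM at 4 weeks 44.4% of the dim and 10.1% of the brighter member probe sets were called, against 32.9% and 28.4% over all probe sets.

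RPL37A, a zinc-binding protein of the large subunit, had probe sets called in opposite directions. Its _at probe set had 78.7, 93.4 and 90.4 in 4w0nM, 130, 121 and 163 in 4w5nM, and 167, 168 and 173 in 4w50nM. It rose by 0.96 with 50 nM (SE 0.14, adjusted p = 4.3e-05) and by 0.65 with 5 nM (adjusted p = 0.00165). The _x_at probe set of RPL37A had 397, 543 and 498 in 4w0nM, 306, 221 and 242 in 4w5nM, and 180, 280 and 225 in 4w50nM. It fell by 1.081 with 50 nM (SE 0.21, adjusted p = 0.000708) and by 0.91 with 5 nM (adjusted p = 0.0038). The bright _s_at probe set, which was read for the gene, averaged 8506 ± 292 in 4w0nM, 8659 ± 100 in 4w5nM and 8720 ± 237 in 4w50nM (SD, n = 3 each), and was not called in either comparison.

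RPS10, a small subunit protein that is ubiquitinated on stalled ribosomes, had 4 probe sets tested, of which 1 rose and 1 fell with 5 nM at 4 weeks. The dim one had 268, 219 and 288 in 4w5nM, against 137, 195 and 175 in 4w0nM, and rose by 0.62 (adjusted p = 0.0105), while 1 of the 3 bright ones had 7723, 7950 and 7360 in 4w5nM, against 8102, 8888 and 9351 in 4w0nM, and fell by 0.19 (adjusted p = 0.00848). The other 2 bright ones were not called, and the one read for RPS10 averaged 9385 ± 395 in 4w5nM and 9879 ± 299.9 in 4w0nM (SD, n = 3 each), a log2 fold change of -0.07. RPL31 rose by 1.48 with 5 nM (adjusted p = 0.000431) and by 1.06 with 50 nM (adjusted p = 0.00362) at 4 weeks on its dim _at probe set, where 1 of the 4w5nM arrays reached 403 and the other 2 had 158 and 193. For RPS28 the dim _at probe set pointed the same way as the bright probe set, with 73.4, 101 and 87.5 in 4w50nM, against 140, 142 and 174 in 4w0nM, a fall by 0.81 (adjusted p = 0.00524). A dim _x_at probe set of RPS12 passed the filter only through 1w0nM, where it had 54.6, 61.3 and 50.8, and it reached at most 40.5 in any other group. Its signals were 3.41, 8.80 and 20.9 in 1w50nM, and because a probe set kept in this way had to be lower elsewhere, its change is given as values only. The 57 probe sets that carry a ribosomal protein symbol together with others were kept apart. Of the 53 past the filter, 5 rose and 3 fell with 50 nM at 4 weeks (15.1%, against 40.7% of all probe sets in that fit).

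**Figure D5:**
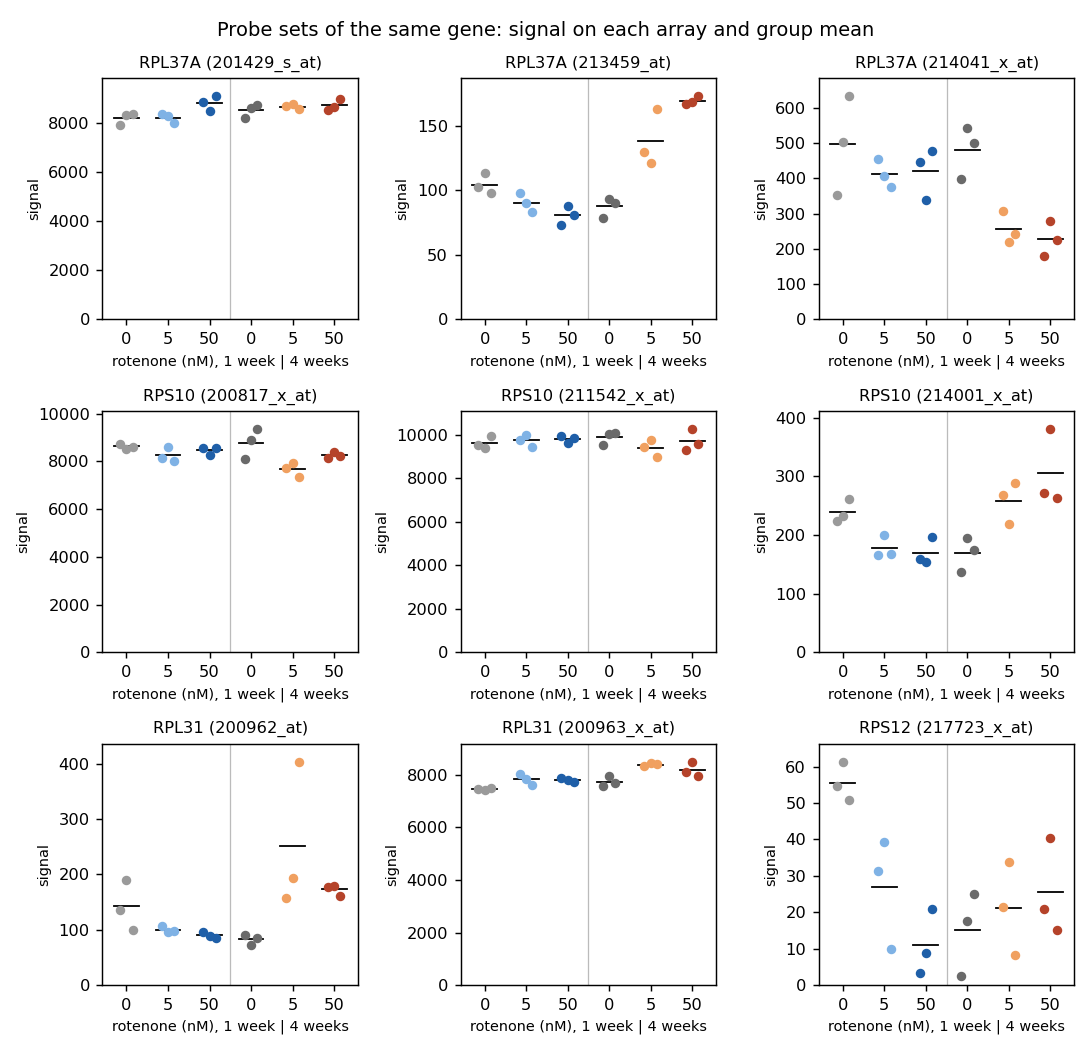
Signal (vertical axis, linear, from 0) on each array, as points, and group mean, as lines, for 9 probe sets of RPL37A, RPS10, RPL31 and RPS12 at 0, 5 and 50 nM rotenone for 1 week (left of the grey line) and 4 weeks (right). For RPL37A, the _at probe set is high and the dim _x_at one low in both rotenone groups at 4 weeks, while the bright _s_at one stays between 7921 and 9077.

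Genes that make ribosomes were read from a list of 62 ribosome biogenesis factors. Of these, 3 rose and 13 fell with 50 nM at 1 week (25.8%, against 20.1% of all genes, median -0.14), and 23 rose and 5 fell with 50 nM at 4 weeks (45.2%, against 41.3%, median 0.17). TAF1A, a subunit of the selectivity factor of RNA polymerase I, averaged 32.2 ± 2.38 in 1w50nM and 66.1 ± 10.3 in 1w0nM, and 112 ± 12.4 in 4w50nM and 46.6 ± 4.13 in 4w0nM (SD, n = 3 each). It fell by 1.03 at 1 week (adjusted p = 0.000379) and rose by 1.27 at 4 weeks (adjusted p = 1.14e-05). TAF1D of the same factor also rose at 4 weeks (adjusted p = 2.78e-05), as did RRN3, which brings the polymerase to the promoter, by 0.94 (adjusted p = 0.000905) and the nucleolar NOC3L by 1.22 (adjusted p = 3.89e-05). At 1 week NOC3L fell by 0.84 (adjusted p = 0.00329) and RRN3 by 0.785 (adjusted p = 0.00904). TAF1A, NOC3L and RRN3 averaged higher in 1w0nM than in 4w0nM, though 0 of the 62 factors were called over time in vehicle. The 1-week falls were not read against 4w0nM. With 5 nM at 4 weeks 18 of the 62 factors rose and 5 fell (37.1%, against 32.9% of all genes).

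FAU, which encodes the small subunit protein eS30 fused to a ubiquitin-like protein and so lies outside the symbol rule, averaged 4398 ± 134 in 4w0nM, 3179 ± 178 in 4w5nM and 3374 ± 217 in 4w50nM (SD, n = 3 each). It fell by 0.38 with 50 nM (adjusted p = 0.000234) and by 0.47 with 5 nM (adjusted p = 7.37e-05). Of the 15 other genes with TOP mRNAs, 2 rose and 0 fell with 50 nM at 4 weeks by limma (13.3%, against 41.3% of all genes, with 3 at an unadjusted p below 0.05), with EIF4B, a helper of the initiation helicase, higher by 0.54 (adjusted p = 0.00201) and HNRNPA1 by 0.36 (adjusted p = 0.00105). A list of genes mutated in Diamond-Blackfan anaemia, which need not be complete, had 9 tested genes. Of these, 1 rose and 2 fell in the same comparison (33.3%, against 41.3% of all genes), with RPS29 higher and RPS28 and RPL35A lower.

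Over the 18 arrays the members varied together only weakly. The median Pearson correlation of 2 members was 0.136, against 0.0157 for pairs of other genes, and 63.7% of the pairs of members had a positive correlation, against 51.2% of other pairs. These pairs share the same 18 arrays and their scaling, and the values are a description. The lowest median correlations with the other members were those of RPLP2 (-0.03), RPL39 (-0.02) and RPL39L (-0.01).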

How the data were processed

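The authors hybridized labelled cRNA to Affymetrix arrays, normalized the arrays and summarised the probes of each probe set with the expression index of dChip. The normalization method is not given in the sources used here. The deposited values are linear intensities of each probe set between 0.46 and 11258. They were used as deposited, values under 16 were set to 16, and log2 was taken. A gene was read from its probe set of a single symbol with the highest mean log2 signal provided that 3 or more arrays reached 50. The limma package (3.58.1, R 4.3.3) was fitted to all 18 arrays with 1 mean per group and an intensity trend (12 residual and 5.71 prior degrees of freedom), p-values were adjusted by Benjamini-Hochberg over all 9162 genes of a comparison, and genes with an adjusted p below 0.05 were called. The test was tried on simulated arrays with independent noise for each gene. These held no shift shared by the genes of an array, so the trial does not cover such shifts. Groups and replicate numbers follow the labels, and the number of arrays limits the precision.

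Named genes are, per comparison, up to 6 rises and 6 falls among the called members, the paralogs and their partners, the stalk and 5S particle proteins, members on chromosome 8, genes with probe sets called in opposite directions, and up to 4 called genes of the other lists. RPL24 and the flat genes, and the dim probe sets of RPL31, RPS28 and RPS12, and the uncalled RPS10 ones, were named after their values were seen, as were the limits on signal and the use of neighbouring genes. The members and lists were chosen with earlier results of these data known. Alternatives (floor, normalization, filter, probe set choice, trend, weights, replicate block, left-out arrays) are in the closing section. RefSeq tables (GRCh38.p14) gave start windows and gene order, and protein sequences were not used here.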

Additional observations from a re-analysis of the deposited data

Results flagged for a closer look

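The effect of 50 nM rotenone differed between 4 weeks and 1 week, by the interaction contrast of limma, for 5 members. The difference of the log2 fold changes was -3.67 for RPL39L (SE 1.09, adjusted p = 0.0109), from -2.88 at 4 weeks and 0.79 at 1 week, and it was -2.26 without array 3 of 1w0nM, the array with a signal of 1.62. It was 1.09 for RPLP2 (SE 0.26, adjusted p = 0.00223), from 0.30 at 4 weeks and -0.80 at 1 week, -0.36 for RPL8 (adjusted p = 0.00301), -0.26 for RPS28 (adjusted p = 0.00723) and 0.34 for RPS29 (adjusted p = 0.000884). With 5 nM the difference between weeks was 0.33 for RPS15A (adjusted p = 0.00466), from 0.24 at 4 weeks and -0.09 at 1 week, and 0.27 for RPS29 (adjusted p = 0.00714), from 0.10 at 4 weeks and -0.17 at 1 week. All of these use the same vehicle arrays as the comparisons within each week.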

How the results depend on the processing

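The 49 called changes of single members were followed through the alternatives and left-out arrays. The call was kept in 855 of these readings and lost with the same direction in 146. In 1 reading the direction turned, that of RPL38, whose log2 change between 4 weeks and 1 week with 50 nM was 0.0384 when the probe sets of a gene were averaged. In counts of called members (5 nM and 50 nM at 1 week, then 5 nM and 50 nM at 4 weeks), no intensity trend gave 0, 2, 1 and 4, array weights 0, 3, 19 and 19 (an estimate that did not fully converge, under which 2.81%, 15.9%, 60.7% and 61.1% of all genes were called, against 6.23%, 19.8%, 32.6% and 40.7% without the trend), and the t-test of the methods with a fold above 2 gave 0, 0, 0 and 1, and after Benjamini-Hochberg 0, 0, 1 and 3. A floor of 32 gave 0 for 5 nM at 1 week. For 50 nM against 5 nM at 4 weeks these were 4 without the trend, 17 with weights (41.2% of all genes), and 1 and 0 by the t-test; at 1 week weights gave 6 (25.6%). For 5 nM between weeks they were 1, 23 (62.4%), 0 and 3, for 50 nM 6 without the trend, and 1 and 6 by the t-test. The difference of the 5 nM effect between weeks gave 0 without the trend, 5 with weights, 6 after median scaling and 4 with averaged probe sets, and that of 50 nM 9 with averaged probe sets. Vehicle at 4 weeks against 1 week gave 2 after quantile normalization, 1 after median scaling and 1 with averaged probe sets. With only the arrays compared, or 4w0nM arrays as vehicle of 1 week, both 1-week counts were 0, and an exchange of array 2 of 1w5nM and array 3 of 1w50nM, a doubt of this re-analysis drawn from group means in a supplementary table and not raised by the study, gave 0 for 5 nM and ended the RPLP2 calls. In the fit of probe sets, alternatives chosen after seeing the data gave 2 for 5 nM at 1 week and 2 for vehicle over time (quantile or median scaling) and 15 for the difference of the 5 nM effect (median scaling).

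Median scaling moved the median of the members to -0.0801 (5 nM, 1 week), 0.0480 and 0.0393 (5 nM and 50 nM, 4 weeks), 0.10 (50 nM against 5 nM, 1 week), -0.10 (vehicle over time), 0.031 and -0.0805 (5 nM and 50 nM over time), and 0.12 and 0.0299 (differences of the 5 nM and 50 nM effects), and weights moved that of the 5 nM difference to 0.0382. Leaving out single arrays gave 0 to 2 and 2 to 7 called members with 5 nM and 50 nM at 1 week, 2 to 5 and 5 to 12 at 4 weeks, 4 to 7 for 50 nM against 5 nM at 4 weeks, 3 to 7 for 5 nM over time, and 2 to 6 and 5 to 8 for the differences of the 5 nM and 50 nM effects, and medians of -0.0441 to 0.0176 for 50 nM against 5 nM at 4 weeks and -0.0209 to 0.0272 for the difference of the 5 nM effect. Where a setting does not itself show it, the cause was not tested. Arrays of the same replicate number did not deviate together (median correlation -0.0165 over 45 pairs, 11 of them above 0.1), so the numbers were not taken as pairs. With the replicate block 11 members were called for 50 nM at 4 weeks and 8 for 50 nM against 5 nM at 4 weeks, and RPL14 lost its call for 50 nM at 4 weeks (adjusted p = 0.0573). A signal near the floor, as of RPL39L in 4w50nM, limits what can be read of its level.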
